A study of Mus musculus with 5 samples.

Results

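The 35 genes described here are a set of mouse cell cycle genes chosen by name, and each matched 1 row among the 32285 genes of the count matrices. They were followed in droplet single-cell libraries (10x Genomics 3′ chemistry, which counts molecules as UMIs) of hand-picked pancreatic islets from 5 mice, 1 library a mouse. All mice were NOD.SCID (strain NOD.Cg-Prkdcscid/J), so both diet groups carried the scid mutation of Prkdc and lack mature T and B cells. Chow mice 1, 2 and 3 were 8, 10 and 10 weeks old on a chow diet. HC mice 1 and 2 were 7 and 9 weeks old on a diet with 20% HC, hydrolyzed casein. The labels do not give how long the diets were fed. The title of the library of HC mouse 2 calls it chow-fed while its diet label says HC, and the diet label was followed. Library names begin with FUN for chow mouse 1 and HC mouse 1, the 2 youngest mice, and with SKY for the other 3. What the prefix marks is not stated, so prefix and age cannot be told apart. Levels are given as CPM, the UMIs of a gene per 1000000 UMIs of the same cells. Where values are given for each mouse, the order is chow 1, 2 and 3, then HC 1 and 2.

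A dividing cell first copies its DNA, in S phase, and then separates the copies in mitosis. MCM helicases open the DNA, PCNA clamps the polymerase onto it, and ribonucleotide reductase, thymidylate synthase and thymidine kinase supply nucleotides. Cyclins A2, B1 and B2 switch on the kinase Cdk1 for mitosis. The NDC80 complex, built of Ndc80, Nuf2, Spc24 and Spc25, ties chromosomes to the spindle, and Cdc20 with the ubiquitin ligase APC/C ends mitosis. In adult islets few endocrine cells divide, and beta cell division falls with age.

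The 5 matrices held 28722244 to 39624978 UMIs and 4452 to 6087 barcodes. After filters on UMIs, genes and mitochondrial RNA, 22758 cells were kept, 3656 to 5122 a mouse, with median totals of 5147 to 6958 UMIs. Of 22694 distinct kept barcodes, 64 were found in more than 1 library. No doublet caller was applied. Cells were clustered without the cell cycle genes, and clusters were named from marker genes. The resulting beta-like, alpha-like, delta-like, macrophage-like, endothelial-like, stromal-like, ductal-like and Schwann-like cells are called by their type alone in what follows. Another 3452 cells stayed unnamed. The types differed in depth, from a median of 8097 UMIs in beta cells that were not cycling to 3867 in alpha, 2455 in delta, 1706 in macrophages and 1307 in endothelial cells. The clusters that made up a type were not shared out evenly. A beta cluster led by Mafa and Trpm5 held 57.1% of the beta cells of chow mouse 1 and 32.2% of those of HC mouse 1, against 6.19% to 20.4% in the 3 SKY mice. An alpha cluster led by Irx1 and Edn3 held 50.1%, 6.02%, 2.75%, 21.5% and 16.5% of the alpha cells of each mouse.

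Promoters of 5 members are printed to show the letters shared by genes that peak in mitosis (Ccnb2, Cdc20, Cdk1), by a replication gene (Mcm6) and by Spc25, whose RNA was held mostly outside cycling cells. Each runs from 150 bases before to 30 bases after the RefSeq start of the gene (build GRCm38.p6), on the strand of the gene. Capitals mark CCAAT boxes (CCAAT, or ATTGG when read on the other strand), the cell cycle homology region or CHR element (TTTGAA or TTTAAA on either strand) and E2F words (TTTCCCGC, TTTCGCGC, TTTGCCGC or TTTGGCGC on either strand). Overlapping words run together in capitals.
Ccnb2, chr9:70421525-70421704, minus strand: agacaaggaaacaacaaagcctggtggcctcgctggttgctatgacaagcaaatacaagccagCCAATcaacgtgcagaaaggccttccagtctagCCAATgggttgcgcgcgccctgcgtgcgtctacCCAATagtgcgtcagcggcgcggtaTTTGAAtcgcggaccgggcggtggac
Cdc20, chr4:118437314-118437493, minus strand: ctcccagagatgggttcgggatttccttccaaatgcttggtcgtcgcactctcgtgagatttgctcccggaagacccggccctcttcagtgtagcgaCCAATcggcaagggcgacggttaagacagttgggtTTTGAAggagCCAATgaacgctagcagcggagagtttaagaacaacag
Cdk1, chr10:69352883-69353062, minus strand: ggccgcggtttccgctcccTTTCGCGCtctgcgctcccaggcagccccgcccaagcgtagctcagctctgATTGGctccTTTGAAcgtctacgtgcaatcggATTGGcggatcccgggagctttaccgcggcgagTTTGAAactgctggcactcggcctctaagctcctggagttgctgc
Mcm6, chr1:128359676-128359855, minus strand: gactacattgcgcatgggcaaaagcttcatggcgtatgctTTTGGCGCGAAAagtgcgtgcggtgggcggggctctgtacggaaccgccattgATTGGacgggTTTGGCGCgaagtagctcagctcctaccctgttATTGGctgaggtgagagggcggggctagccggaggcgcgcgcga
Spc25, chr2:69206184-69206363, minus strand: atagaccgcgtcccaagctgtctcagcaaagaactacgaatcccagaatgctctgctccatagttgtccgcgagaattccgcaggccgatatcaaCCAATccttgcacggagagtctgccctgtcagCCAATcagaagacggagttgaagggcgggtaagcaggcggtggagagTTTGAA
Cyclin B2, which activates Cdk1, had 3 CCAAT boxes and a CHR element in this stretch. Spc25 had 2 CCAAT boxes and a CHR element, as had Cdc20. Mcm6, a helicase subunit, had 2 CCAAT boxes, 3 E2F words and no CHR word. The kinase gene Cdk1 had all of the 3 kinds. RefSeq promoters of 300 bases, from 250 before to 50 after the start, were listed for 29 of the 35 members. Pbk, Ccna2, Stmn1, Tpx2, Aurkb and Spc24 had no entry. A CHR word stood in 23 of the 29 (79.3%), against 27.8% of the 27025 promoters of the same length. A CCAAT box stood in 25 of the 29 (86.2%), against 37.9% of all. Both stood in 21 (72.4%), against 10.9% of all. E2F words stood in 4 members (13.8%), Cdk1, Mcm3, Mcm5 and Mcm6, against 2.32% of all promoters. These are matches of letters and carry no measurement of binding.

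A small group of cells held most of the mitotic RNA. Of the 35 members, 23 act in mitosis and were used to find cycling cells, defined as cells with UMIs of at least 3 different ones. In 21799 cells none of the 23 was detected, in 712 cells 1, and in 45 cells 2. The 202 cycling cells, 0.888% of kept cells (95% exact binomial interval 0.770% to 1.02%, counting error only), carried a median of 13 of the 23 genes and up to 22. At the threshold, 17 cells carried 3 or 4 of the genes, and 138 carried at least 10. Cycling cells held 88.1% of all UMIs of the 23 genes, a share that follows in part from the definition, which used the same genes. They were deeper than other cells, with a median of 7486 UMIs against 5998, and in beta cells 13311 against 8097. When the cell cycle genes were kept in the clustering, 135 of the 202 fell into a single cluster of 136 cells.

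**Figure D1:**
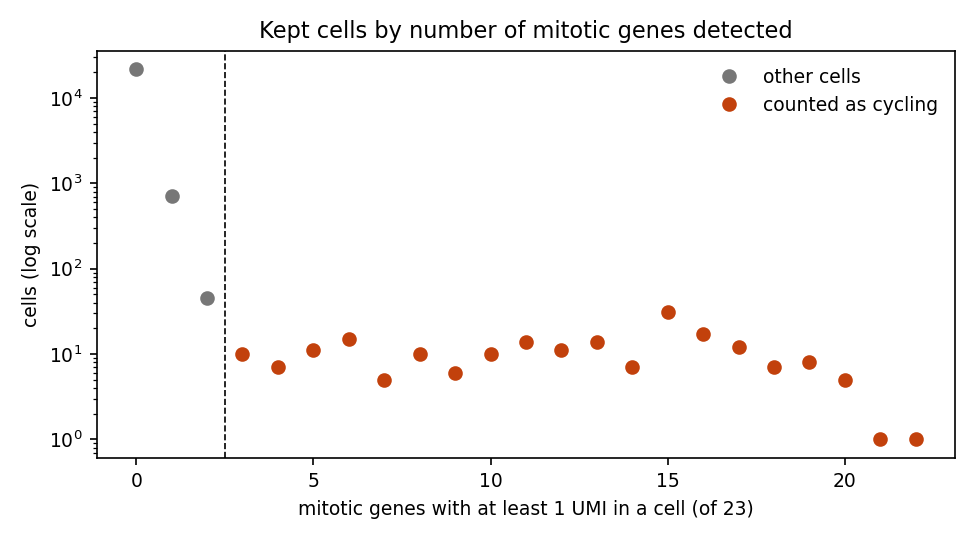
Number of kept cells (log scale) by how many of the 23 mitotic genes had at least 1 UMI in the cell. Grey points are other cells, orange points the 202 cycling cells, and the dashed line is the threshold of 3 genes. The count falls from 21799 cells with none to 45 with 2, and cycling cells spread up to 22 genes.

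Most RNA of the mitotic cyclins and kinases lay in these cells. Judged with the gene itself left out of the definition, cycling cells held 95.4% of the UMIs of Ccnb2, 93.8% of Ccnb1 and 89.2% of Ccna2. Cdk1, the kinase these cyclins activate, had 88.8% of its UMIs in cycling cells, and Plk1, a kinase of mitotic entry, had 87.9%. The Aurora kinases were less concentrated, with 80.8% for Aurkb, which acts at centromeres, and 51.6% for Aurka, which acts at spindle poles. Pbk, another mitotic kinase, had 89.5%.

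RNA of chromosome and spindle genes was also held mostly in cycling cells, with shares from 70.1% to 91.7%. Mki67, the Ki-67 antigen that coats mitotic chromosomes, had 485 UMIs, 88.9% of them in cycling cells, of which 76.9% had at least 1. Only 0.192% of cells with none of the other mitotic genes had an Mki67 UMI. Top2a, the topoisomerase that untangles sister chromatids, had 91.3% of 530 UMIs in cycling cells. The shares were 91.7% for Tpx2, which nucleates spindle microtubules, 90.2% for Prc1, which bundles them at the midzone, and 80.6% for Nusap1, which binds them. The motors Kif11, Kif23 and Cenpe had 76.4%, 77.4% and 88.6%. Cenpf, a large kinetochore protein, had 84.7%. Cenpa, the histone H3 variant of centromeres, had 70.1%, the lowest share of the 23 after Aurka. Outside the cycle, Cenpa stood at 21.9 CPM in macrophages (26 UMIs) and 26.7 in endothelial cells (35 UMIs), against 0.152 in beta cells.

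Among genes of the spindle checkpoint and of mitotic exit the shares ran from 86.6% to 95.9%. Ube2c, the ubiquitin-conjugating enzyme of APC/C, had 1218 UMIs, 95.9% of them in cycling cells. Birc5, or survivin, a partner of Aurora B, had 95.7%, and the checkpoint genes Bub1 and Bub1b had 95.6% and 95.3% of only 45 and 43 UMIs. Cdc20 had 86.6%.

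Replication genes were different, and many cells outside the group also carried their RNA. Members were set apart where some cell type without any mitotic gene reached 25% or more of their level in cycling cells of all types together. This rule set apart 7 of the 35, namely Mcm2, Mcm3, Mcm5, Mcm6, Pcna, Tyms (thymidylate synthase) and Stmn1 (stathmin, which destabilizes microtubules). Cycling cells held 8.95% of the UMIs of Mcm2, 22.3% of Mcm3, 23.3% of Mcm5, 7.57% of Mcm6, 7.93% of Pcna and 16.9% of Tyms. Mcm6 even stood higher in endothelial cells without mitotic genes, at 37.1 CPM, than in cycling cells as a whole, at 27.3. Here and in the rule a single type is set against cycling cells of all types, so type and cycling state cannot be told apart. The type highest outside the cycle was endothelial for Mcm2, Mcm3, Mcm6 and Pcna, ductal for Mcm5 and Tyms, and Schwann for Stmn1. Stmn1 stood at 218 CPM (171 UMIs) in Schwann cells without any mitotic gene, summed over mice, against 764 in cycling cells and 1.33 in beta cells without mitotic genes. Over all 160 Schwann cells, none of which was cycling, it stood at 58.4, 192, 644, 89.0 and 1122 CPM in the 5 mice, lowest in chow mouse 1 (9 UMIs) and highest in HC mouse 2 (175 UMIs). The members just below the rule were Spc25, at 19.4% of its cycling level in alpha cells, and Hmgb2, a chromatin protein, at 18.5% in macrophages. Rrm2, the small subunit of ribonucleotide reductase, had 51.6% of 157 UMIs in cycling cells, and Tk1, thymidine kinase, 78.0% of 91. Cells in S phase without mitotic RNA are not counted as cycling by this definition. Of 194 cells with at least 3 of the 8 S phase members (Mcm2, Mcm3, Mcm5, Mcm6, Pcna, Rrm2, Tyms, Tk1), 84 were cycling and 110 were not, and 55 cycling cells had none of the 8.

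**Figure D2:**
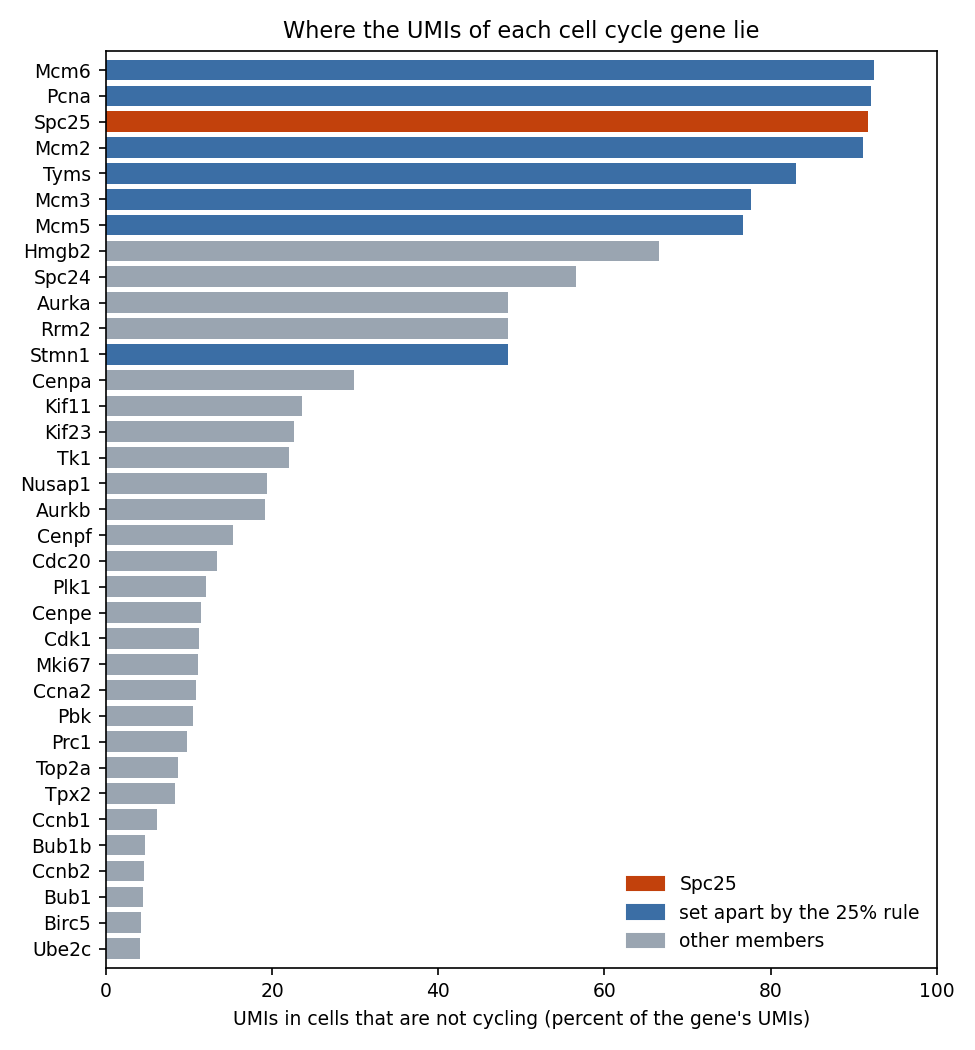
Share of each gene's UMIs that lay in cells that were not cycling, in percent of all its UMIs in kept cells, 1 bar a gene. Spc25 (91.7%, orange) stands among the replication genes set apart by the 25% rule (blue), far from the mitotic genes such as Ube2c (4.11%).

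Of the mitotic and kinetochore members, Spc25 had the largest share of UMIs outside cycling cells, followed by Spc24 (56.6%) and Aurka (48.4%). Spc25 had 5481 UMIs, the most of the 35 members, in 4037 cells, and 91.7% of them lay outside cycling cells. The gene (Ensembl ENSMUSG00000005233) lies at chr2:69193895-69206194 on the minus strand (GRCm38, GENCODE vM21). In alpha cells that were not cycling it stood at 60.0, 60.0, 52.2, 37.4 and 36.9 CPM, and in beta cells at 37.6, 35.9, 29.3, 41.9 and 25.7. In delta cells it stood at 11.9, 11.9, 3.89, 10.7 and 1.40. Alpha cells were above delta cells in each of the 5 mice. At least 1 Spc25 UMI was found in 17.1% of these alpha cells and 23.6% of the deeper beta cells, against 2.17% of delta cells and 0.366% of 819 endothelial cells, where it had 3 UMIs in all. Macrophages, with 17 UMIs in all, had 27.0, 25.6, 3.67, 4.70 and 12.7 CPM. Schwann cells had 25 UMIs and 45.4, 32.9, 8.94, 16.2 and 25.6 CPM. The order of means over mice was alpha (49.3 ± 11.6, SD, n = 5), beta (34.1 ± 6.52), Schwann (25.8 ± 14.3), stromal (16.0 ± 13.2), macrophage (14.7 ± 11.2), delta (7.96 ± 4.96), ductal (5.13 ± 7.34) and endothelial (2.08 ± 3.08). Each neighbouring pair in this order overlapped between mice, while every alpha and beta value was above every delta and endothelial value. Whether the low levels outside alpha and beta cells are expression by those cells was not tested. RNA of beta cell markers was also counted in other types, alpha cells included. The 15 beta cell markers together made up 134139 to 290003 CPM in macrophages, 44346 to 193095 in delta cells, 6962 to 40836 in endothelial cells and 17864 to 34749 in alpha cells. Without Ins1 and Ins2 the sum in delta cells was 23854 to 35077. How much RNA of these markers each type made itself was not tested. CPM are shares of all RNA counted, so less of a gene's RNA and more of other RNA cannot be told apart.

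The partners of Spc25 stood lower than Spc25 in alpha and beta cells outside the cycle. In alpha cells that were not cycling, Spc24, its dimer partner, stood at 4.12, 3.07, 3.03, 2.98 and 2.82 CPM, Ndc80 at 0.257, 0.236, 0.303, 0.930 and 0.217, and Nuf2 at 1.29, 1.18, 0, 0.186 and 0. In beta cells that were not cycling, Ndc80 had 4 UMIs and Nuf2 31 UMIs over 9778 cells, where Spc25 had 2984. In cycling beta cells all 4 subunits were found: 89.5% of the 57 cells had a Spc25 UMI, 73.7% Spc24, 28.1% Ndc80 and 31.6% Nuf2. The genes next to Spc25 on chromosome 2 had other patterns over cell types. G6pc2, a beta cell glucose-6-phosphatase gene on the plus strand (chr2:69211073-69227841), starts 4879 bases from the start of Spc25. Outside the cycle it stood at 259 to 317 CPM over the 5 mice in beta cells, 15.2 to 26.7 in alpha cells and 18.2 to 87.4 in delta cells. Nostrin, a gene of endothelial trafficking on the plus strand (chr2:69135800-69189330), ends 4565 bases before the 3′ end of Spc25. It was highest in endothelial cells, at 167 to 259, with 43.9 to 52.5 in alpha, 68.5 to 84.8 in delta and 4.47 to 5.83 in beta cells. Of these 3 genes only Spc25 was high in both alpha and beta cells and low in both delta and endothelial cells. Whether the counting used strand is not given in the sources used here.

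**Figure D3:**
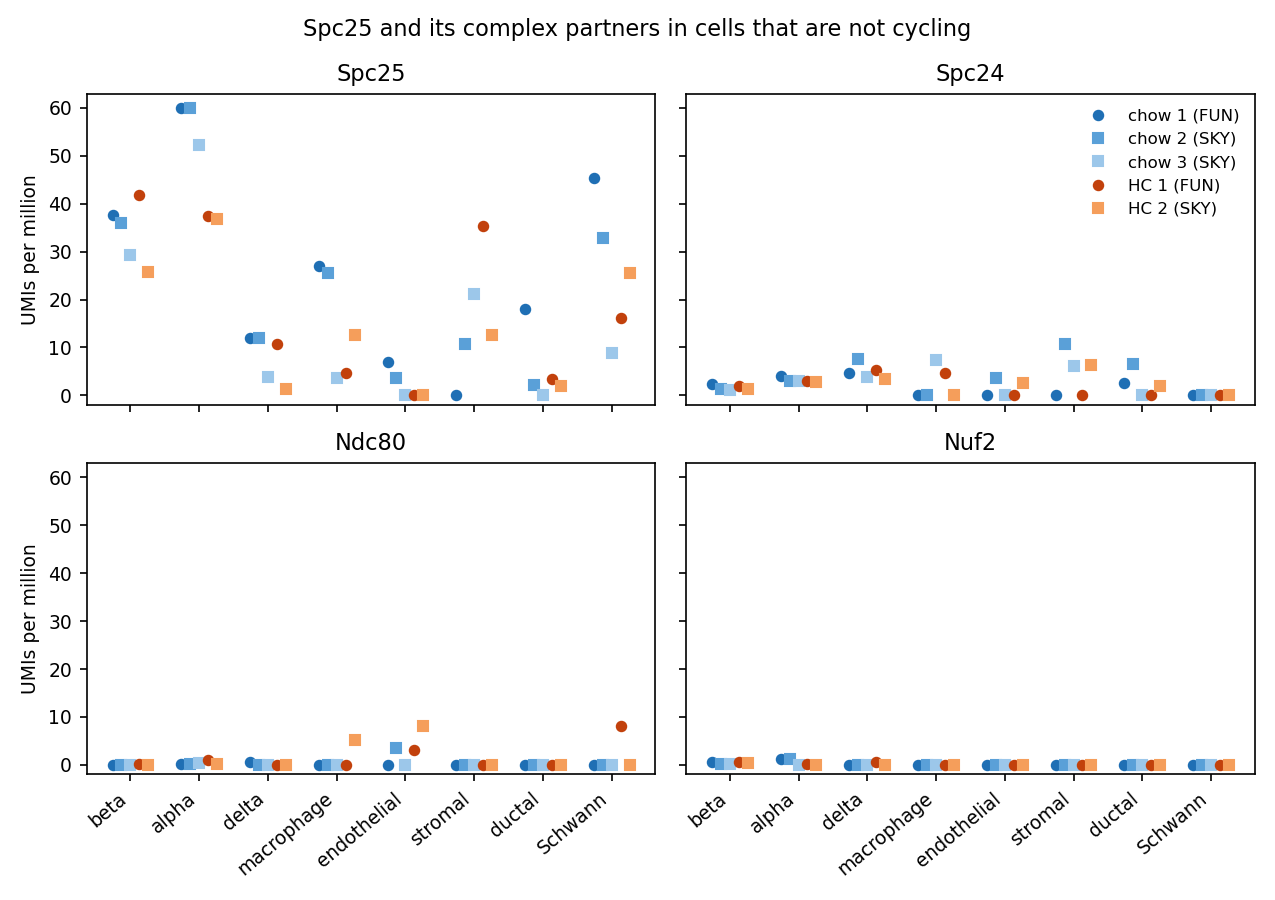
CPM of Spc25, Spc24, Ndc80 and Nuf2 in cells that were not cycling, by cell type (horizontal axis) and mouse (1 point each, circles for FUN and squares for SKY libraries, blue for chow and orange for HC). Spc25 reaches 60.0 in alpha cells, while the 3 partners stay under 11 in every type.

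Between cell types outside the cycle, sums of counts for each mouse and type were compared with edgeR's quasi-likelihood test with the mouse as a block, and a gene was called at a Benjamini-Hochberg adjusted p under 0.05 over all genes tested. Spc25 was higher in alpha than in delta cells, by 3.00 on the log2 scale (SE 0.189, edgeR adjusted p = 2.31e-11). Of the 8 members tested there, Pcna was also called, at 0.30 (SE 0.120, edgeR adjusted p = 0.0384). Over all genes, 43.2% of 10189 were called in either direction and 21.8% higher, so 2 of 8 members is no more than the background. Against beta cells, Spc25 in alpha cells was not called, at -0.18 (SE 0.113, edgeR adjusted p = 0.196), although its CPM were higher in alpha cells in 4 of 5 mice. The sign of this difference thus flipped between CPM and edgeR's TMM scaling. Without chow mouse 1 the difference was -0.27 (edgeR adjusted p = 0.0209), and without the filter on low counts -0.23 (edgeR adjusted p = 0.00273), so that Spc25 was called lower in alpha cells in both. Called higher in alpha than beta cells were Stmn1 (1.47), Mcm3 (1.89), Mcm6 (0.94), Mcm2 (0.56) and Hmgb2 (0.28), 5 of 9 tested members, beside a background of 62.8% of 11531 genes called in either direction and 31.0% called higher. A member low in beta cells could pass the filter only through alpha cells, so this count is no support. Mcm3, for example, stood at 0.386 CPM in beta and 2.09 in alpha cells without any other mitotic gene. Mcm2 and Hmgb2 were not called by DESeq2, without HC mouse 2 or without the filter.

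Cycling cells were found in every named type except Schwann cells. They were 57 of 9835 beta cells (0.580%, 95% exact interval 0.439% to 0.750%), 29 of 4914 alpha cells (0.590%, 0.396% to 0.846%) and 19 of 2461 delta cells (0.772%, 0.465% to 1.20%). The pooled shares were larger in the other named types that had cycling cells, with 16 of 470 macrophages (3.40%, 1.96% to 5.47%) and 16 of 292 ductal cells (5.48%, 3.16% to 8.75%). For endothelial cells it was 12 of 831 (1.44%, 0.748% to 2.51%), and for stromal cells 5 of 343 (1.46%, 0.475% to 3.37%). Cycling stromal cells numbered 0, 3, 0, 2 and 0 in the 5 mice. Macrophages, ductal cells and endothelial cells each had a larger share than beta cells in all 5 mice, although their cells were shallower. Cycling cells were themselves deeper than the rest of their type, with medians of 2754 against 1307 UMIs in endothelial cells and 2584 against 1706 in macrophages. With cells under 3000 UMIs left out and the others thinned to 3000, the pooled shares were 0.477% of 9643 beta cells, 6.60% of 106 macrophages, 4.55% of 198 ductal cells and 6.17% of 81 endothelial cells. This left out most macrophages and endothelial cells. The order did not hold in every mouse there, since 0 of 2 endothelial cells of chow mouse 3, 0 of 3 of HC mouse 2 and 0 of 22 ductal cells of chow mouse 3 were cycling. Among 160 Schwann cells none was cycling, which allows a share of up to 1.88% by a limit of 3 counts and up to 2.28% by the 95% exact interval. Of the unnamed cells 48 of 3452 were cycling, with the largest share (11 of 185, 5.95%) in a cluster led by Ccl17, Cd209a and Mgl2. Unnamed clusters led by Ppy, the pancreatic polypeptide gene, and Pyy and by Fev and Ppy had 14 of 1521 (0.920%) and 10 of 479 (2.09%). All 57 cycling beta cells had insulin as the leading hormone, and 26 of 29 cycling alpha cells had glucagon. Among 19 cycling delta cells, 12 had somatostatin and 4 insulin as the leading hormone. Insulin also led in 4 of 16 cycling macrophages, 5 of 16 cycling ductal cells and 26 of 48 cycling unnamed cells. How often insulin led in the other cells of these types is not given here, so these counts are no trait of cycling cells.

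The shares of cycling cells in HC and chow mice overlapped over all kept cells and in the endocrine types. Over all kept cells it was 1.59%, 0.703%, 0.737%, 0.975% and 0.589%. Chow mouse 1 was highest and the other 4 were within 0.589% to 0.975%. The means were 1.01% ± 0.500 (SD, n = 3) and 0.782% ± 0.273 (SD, n = 2), and with all 10 ways of splitting the mice an exact permutation test, two-sided, gave p = 0.80 (0.1 is the smallest it can give). Without chow mouse 1 the difference turned from -0.227 to 0.0619 percentage points. Within FUN libraries HC differed from chow by -0.612 points and within SKY libraries by -0.131.

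In beta cells the share was 1.60%, 0.408%, 0.299%, 0.490% and 0.316% (exact permutation p = 0.900). Chow mouse 1 alone stood apart, and without it the difference turned from -0.365 to 0.0499 points. In alpha cells the share was 1.04%, 0.211%, 0.478%, 0.837% and 0.382% (exact permutation p = 1.00), highest in both FUN mice. In delta cells it was 0.917%, 0.628%, 0.195%, 1.52% and 0.591% (exact permutation p = 0.500), and the groups overlapped. In macrophages it was 3.45%, 5.33%, 5.50%, 2.06% and 1.53%, from 2 to 6 cycling cells a mouse, and both HC mice were below all chow mice (exact permutation p = 0.200). Among macrophages with at least 3000 UMIs, thinned to 3000, the groups overlapped, at 11.1%, 5.56%, 9.09%, 10.5% and 2.63% of 106 cells (exact permutation p = 0.600). In endothelial cells it was 2.05%, 2.70%, 1.23%, 1.39% and 0.364% (exact permutation p = 0.300). With 3 against 2 mice this test cannot go below 0.1 in any type. The p-values measure the spread between mice, 1 library each.

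**Figure D4:**
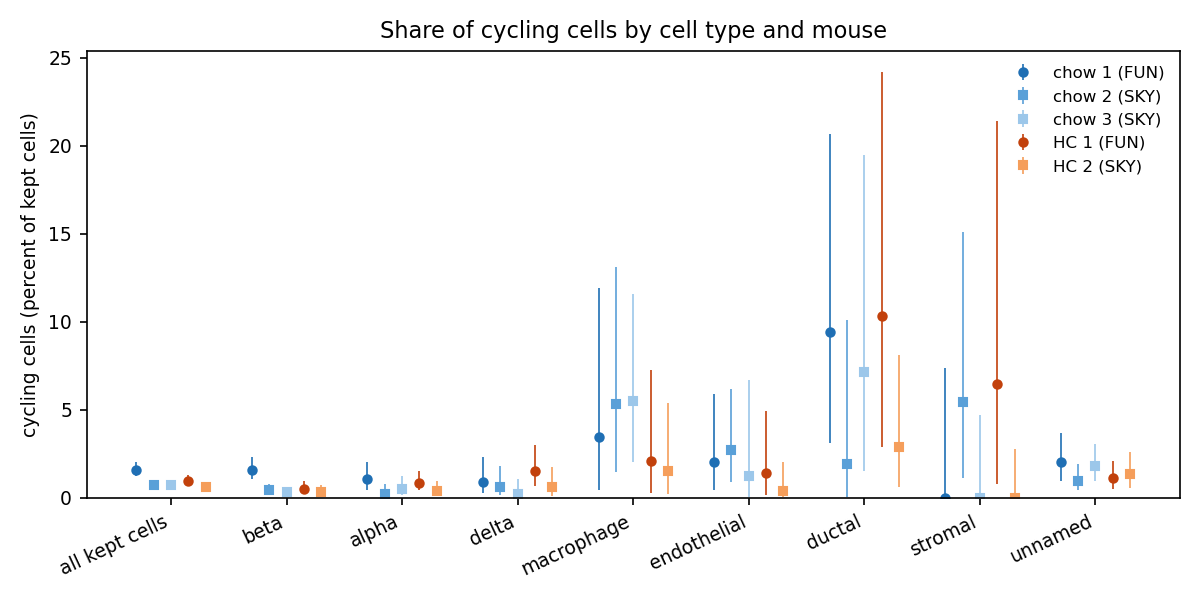
Cycling cells in percent of kept cells, by cell type (horizontal axis) and mouse, with 95% exact binomial intervals as bars (counting error only), circles for FUN and squares for SKY libraries. Chow mouse 1 is highest over all kept cells (1.59%) and in beta cells (1.60%), and in macrophages the HC mice (2.06% and 1.53%) lie below the chow mice (3.45% to 5.50%) with overlapping intervals.

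Counts of the members in HC and chow mice were compared on sums for each mouse with the same edgeR test, 3 against 2 mice. No member was called in any of the 6 sums. Over all kept cells 35 members were tested and 0 called, beside a background of 0% of 14597 genes, and 1 member had an unadjusted p under 0.05. In beta cells 0 of 26 tested members were called (background 0.00848% of 11786 genes), in alpha cells 0 of 20 (0.0458% of 10909), in delta cells 0 of 14 (0.0205% of 9771), in endothelial cells 0 of 9 (0.0372% of 5380) and in macrophages 0 of 3 (0.0752% of 2660). At an unadjusted p under 0.05 these were 0, 1, 8, 1 and 0 members. The share of all genes at that threshold is not given here, so these counts are not read as support. DESeq2 called none either in these 6 sums. In simulated sums of beta cells the test found 97% of 4-fold and 77.3% of 2-fold changes, and in macrophages 91.3% and 32.2%. The changed genes were drawn from all genes that passed the filter, at the spread typical of their level. These shares therefore do not say how often a change in the members would be found.

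Over all kept cells the members of smallest p were Spc25 (-0.40), Mcm6 (0.34), Cenpe (-1.09), Kif23 (-0.72) and Mcm3 (0.45), all log2 HC over chow with edgeR adjusted p from 0.839 to 0.844. Mki67 stood at 5.30, 2.32, 1.99, 3.63 and 2.74 CPM and Top2a at 5.54, 2.35, 2.34, 5.11 and 2.22. Both were high in the 2 FUN mice, 1 of each diet, and their log2 differences were -0.15 (SE 0.363) and -0.06 (SE 0.454). The groups did not overlap for 2 of the 35 members, Mcm3 and Mcm6, with both HC mice higher, beside 22.5% of all genes tested. Both HC mice were lower for none, beside 0.973%. Median log2 differences were -0.06 over the members and 0.01 over all genes tested.

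In beta cells Mki67 stood at 5.03, 1.56, 0.805, 2.22 and 1.06 CPM, from 15 to 83 UMIs a mouse. Chow mouse 1 was highest and the groups overlapped (log2 -0.60, SE 0.836, edgeR adjusted p = 0.997). Top2a, at 4.55, 1.52, 0.644, 1.72 and 1.12, was also highest in chow mouse 1 (log2 -0.66, SE 0.819). The members of smallest p were Aurka (-0.71), Tyms (-0.29), Spc24 (-0.41), Spc25 (-0.18) and Cenpe (-0.99), each with an edgeR adjusted p of 0.957. None of the 26 tested members had groups that did not overlap, where 3.26% of genes had both HC mice lower and 6.02% both higher. Their median log2 difference was -0.39, against -0.01 over all genes, with 3 above 0 (Mcm2, Mcm3 and Mcm6). Without chow mouse 1, Mki67 turned to 0.22 and Top2a to 0.15.

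In alpha cells Spc25 had the smallest p of the tested members. Its sums over all alpha cells were 250, 258, 184, 232 and 177 UMIs, or 63.3, 60.8, 55.4, 42.7 and 38.2 CPM. Both HC mice were below all 3 chow mice, a separation found in that direction for 4.84% of the genes tested and for no other tested member. Both HC mice were higher for none of the 20 members and 20.1% of genes. Outside the cycle Spc24 and Spc25, 2 of 10 members, had both HC mice lower, beside 4.76% of genes, and none had both higher, beside 20.2%. For Spc24 the gap was narrow, at 3.03 CPM in chow mouse 3 against 2.98 in HC mouse 1, from 68 UMIs in all. The log2 difference of Spc25 over all alpha cells was -0.66 (SE 0.127), with an edgeR adjusted p of 0.0911, which misses the threshold. Over the alternatives the difference ran from -0.45 to -0.74 and the adjusted p from 0.00858 to 0.579. It passed without the filter on low counts (edgeR adjusted p = 0.00858). Within FUN libraries log2 of CPM plus 1 differed by -0.56, and within SKY libraries by -0.59. With HC mouse 2 counted as chow, as its title says, the log2 difference was -0.45 (edgeR adjusted p = 0.578).

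Beta cell RNA in the alpha cells was set beside this difference. All 13 tested beta cell markers were below 0 in HC against chow alpha cells, with a median of -0.40 and none called. All 15 markers together, tested or not, stood at 20404, 34749, 29323, 25821 and 17864 CPM, and the diets overlapped. Without the insulin genes they stood at 2008, 2310, 1909, 2361 and 1800, and 1 of the 15 was at 0 in some mouse.

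Both HC mice were also below all chow mice in the parts of these alpha cells with little insulin RNA, which are no independent support. In alpha cells outside the cycle with under 0.5% insulin UMIs Spc25 stood at 59.4, 55.2, 53.7, 37.0 and 38.8 CPM, from 46 to 174 UMIs a mouse. With 0.5% to 2% insulin UMIs it stood at 59.1, 64.1, 53.2, 29.8 and 31.5. In the few cells with at least 2% the groups overlapped, at 73.3, 41.6, 30.2, 49.5 and 10.2, from 2 to 18 UMIs a mouse. In fits added after the data were seen, the log2 difference was -0.73 (SE 0.129, edgeR adjusted p = 0.0564) in alpha cells that were not cycling. With those under 2% insulin UMIs alone it was -0.74 (SE 0.132, edgeR adjusted p = 0.0448). In those last cells the 15 beta cell markers together still stood at 5879, 8981, 5135, 3792 and 4317 CPM, lower in both HC mice than in any chow mouse. Without the insulin genes they stood at 1097, 1091, 919, 1014 and 1047, where the diets overlapped, and 2 of the 15 were at 0 in some mouse. Their part in the Spc25 difference was not tested. The larger alpha cluster, led by Gcg, had 53.2, 61.2, 52.6, 36.3 and 35.2. The cluster led by Irx1 had 67.5, 36.2, 30.8, 41.9 and 46.7, where the groups overlapped, with 7 and 2 UMIs in chow mice 2 and 3. Outside the cycle in beta cells the difference was -0.12 (SE 0.133, edgeR adjusted p = 0.984). Whether the diet difference of Spc25 differs between alpha and beta cells was not tested. The remaining alpha members of smallest p were Mcm5 (1.08), Mcm3 (-0.68), Nusap1 (0.47) and Cenpa (-0.46), with edgeR adjusted p of 0.760 or more. Mki67 differed by 0.20 (SE 0.485) and Top2a by 0.54 (SE 0.967).

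In delta cells, values of several members were larger in HC mice, and none passed the test. Cdc20 had 5, 1, 0, 16 and 9 UMIs, Cdk1 10, 2, 0, 29 and 9, and Ube2c 14, 13, 0, 63 and 27. Mcm2 had 8, 2, 6, 15 and 14. The 5 of smallest p were Cdc20 (2.54, SE 0.703), Cenpf (1.38), Cenpa (1.34), Mcm2 (1.39) and Cdk1 (2.18), each with an edgeR adjusted p of 0.999. Among the 14 tested members 9 had both HC mice above all chow mice (Birc5, Cdc20, Cdk1, Cenpa, Cenpf, Mcm2, Stmn1, Tyms and Ube2c), beside 12.8% of all genes. None had both HC mice lower, beside 5.55%. The filter on low counts lets in a member seen in the HC mice alone, so this count is not support. The median log2 difference was 1.19 over the 14 and 0.00 over all genes. The 23 mitotic members together stood at 58.3, 54.0, 7.77, 185 and 88.6 CPM in delta cells, and the 8 S phase members at 61.4, 58.3, 53.6, 85.2 and 87.2. The share of cycling delta cells itself overlapped between the diets, as given above, and with types set by the leading hormone it was 0.829%, 0.730%, 0.787%, 1.12% and 0.775%. Spc25 in delta cells, with 4 to 32 UMIs a mouse, was not separated (18.4 and 2.77 CPM in HC mice).

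In endothelial cells Ube2c (-1.32), Mki67 (-1.20), Cenpa (-0.71), Cdk1 (-0.74) and Hmgb2 (-0.35) had the smallest p, with edgeR adjusted p of 1.000. Mki67 had 14, 11, 1, 3 and 8 UMIs there, and the groups overlapped. In macrophages only Stmn1 (-0.94), Hmgb2 (-0.40) and Pcna (0.11) passed the filter, with an edgeR adjusted p of 0.998. Stmn1 stood at 67.9, 150, 55.5, 44.6 and 54.6 CPM there, with both HC mice just below the chow mice. Such a separation was found for 4.36% of the genes tested. Of 11 beta cell markers tested in macrophages, Ins1 (-1.0) and Ins2 (-1.02) were called lower in HC mice (edgeR adjusted p = 0.0399 for both). All 15 markers together, tested or not, stood at 290003, 264672, 209794, 134139 and 145308 CPM there. Their part in the values of the members was not tested. In endothelial cells both HC mice were below all chow mice for 7.83% of genes and for Hmgb2 alone among 9 members. No member had both HC mice higher in either sum, beside 8.92% of genes in endothelial cells and 15% in macrophages.

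Other cell cycle genes were read from 7 lists that hold 125 genes. In the 6 diet comparisons 1 of them was called, in alpha cells, where 5 of 10909 genes (0.0458%) were called. Cdkn1a, the p53-induced Cdk inhibitor p21, was lower in HC mice by -1.11 (SE 0.140, edgeR adjusted p = 0.00542). It was 1 of 9 tested Cdk inhibitors and pocket proteins. Its values by mouse and under the alternatives are not given here. Tubb4b, a tubulin of the mitotic list, gave -0.71 in alpha cells (edgeR adjusted p = 0.0911). None of 11 tested NDC80 and kinetochore genes, 24 other mitotic genes or 13 licensing and replication genes was called in beta cells, with medians of -0.01, -0.19 and -0.19. In beta cells no G1 cyclin or kinase, Cdk inhibitor, cell cycle transcription factor or growth regulator was called either.

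FUN libraries were also compared with SKY libraries, with diet as a term. This was chosen after the data were seen, because chow mouse 1, a FUN library, was high in mitotic members, so the values and calls are a description and no independent support. Over all kept cells 33 of 35 members had values above 0 (FUN over SKY), with a median log2 difference of 0.59 against 0.00 over all genes, and the 23 mitotic members were among them. At an unadjusted p under 0.05 were 15 of the 35, a count given without the share of all genes at that threshold and not read as support. None of the 35 was called (background 0.459% in either direction, 0.0274% higher), and Top2a came nearest at 1.02 (SE 0.158, edgeR adjusted p = 0.0624). In beta cells Cenpa (1.80, SE 0.278, edgeR adjusted p = 0.00497) and Mki67 (1.44, SE 0.309, edgeR adjusted p = 0.0450) were called, 2 of 26 members beside 1.01% of genes in either direction and 0.178% higher. In alpha cells Ube2c (1.91, SE 0.317, edgeR adjusted p = 0.00385) and Top2a (1.78, SE 0.389, edgeR adjusted p = 0.0372) were called, 2 of 20 beside 0.862% in either direction and 0.0642% higher. In delta cells Stmn1 was called (0.99, SE 0.220, edgeR adjusted p = 0.0190), 1 of 14 beside 1.04% and, higher, 0.287%. None was called in endothelial cells (0 of 9, background 0.706%, higher 0.0372%) or macrophages (0 of 3, background 0.526%, higher 0.188%), with 0 members at an unadjusted p under 0.05 in either. FUN mice were 7 and 8 weeks old and SKY mice 9 and 10 weeks.

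Cycling beta cells were compared with the other beta cells of the same mice to see what else moved with the mitotic genes. The 23 genes that defined the cells are not tested by this comparison. Of the 12 other members, 11 passed the filter on low counts and 11 were called higher, beside a background of 7.14% of 10197 genes called (3.45% higher). A member with hardly any UMI in the other beta cells could pass the filter only through the cycling ones, so this count is no support and the values of each member are given. Stmn1 stood at 646, 574, 593, 402 and 483 CPM in cycling beta cells and at 2.54, 1.45, 1.35, 2.60 and 1.25 in the others, a log2 difference of 7.80 (SE 0.195). Spc24 rose by 5.71 (SE 0.279) and Hmgb2 by 4.78 (SE 0.202). Spc25 stood at 274, 427, 309, 173 and 263 against 37.6, 35.9, 29.3, 41.9 and 25.7, so that it was higher in cycling beta cells of all 5 mice on top of its level outside the cycle (2.66, SE 0.174, edgeR adjusted p = 1.55e-50). Among replication genes the log2 differences were 4.97 for Mcm3, 4.51 for Mcm5, 2.98 for Mcm2, 2.59 for Mcm6, 3.44 for Tyms and 2.04 for Pcna, with edgeR adjusted p of 1.41e-04 or less. Pcna stood at 82.4, 53.4, 61.8, 118 and 105 against 17.3, 15.1, 14.1, 15 and 15.4, without overlap. Mcm2 had no UMI in the cycling beta cells of chow mouse 2, so its groups overlapped. Tk1 was also called, with 1 UMI in all other beta cells and 5, 2, 3, 4 and 1 in cycling ones. Rrm2 was not tested and had UMIs in cycling beta cells of 2 mice. The median log2 difference of all tested genes was -0.29, and the members' differences are to be read relative to it.

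The lists of related genes are given by their counts, with the same limit, since genes near 0 in the other beta cells, such as Ndc80 with 4 UMIs there, could pass the filter only through cycling cells. Of the other mitotic list 28 genes were tested and 28 called higher, among them Cks2 (7.71), a Cdk subunit, Pttg1 (9.76), or securin, Hmmr (10.06), Cdca8 (8.10), Tubb5 (3.54) and Ckap2l (9.80). Of 13 tested kinetochore genes, 11 were called higher, including Knl1 (10.18), Ndc80 (8.31), Nuf2 (5.87), Cenpm (5.10), Spc24 and Spc25. Of 12 licensing and replication genes, 10 were called higher, including the licensing inhibitor Gmnn (5.30), Dut (2.13), Mcm7 (3.13), Gins2 (4.14), Fen1 (3.00) and Lig1 (2.84). Of 7 Cdk inhibitors and pocket proteins, 3 were called higher: Cdkn2c (3.75), Cdkn2d (2.79) and Cdkn1a (1.46). None of 7 transcription factors was called. Of 5 G1 cyclins and kinases, Ccnd2, the cyclin D2 of G1 phase, was lower (-0.79, SE 0.148, edgeR adjusted p = 3.94e-06). Of 12 growth regulators, Ezh2, a histone methyltransferase, was higher (3.23).

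Of 14 tested beta cell markers, 9 were lower in cycling beta cells and Npy, a neuropeptide, was higher (1.52, SE 0.145). G6pc2 (-1.09, SE 0.169), the glucose transporter gene Slc2a2 (-1.02, SE 0.166) and the transcription factor gene Nkx6-1 (-0.97, SE 0.182) fell most, and Ins2 gave -0.57 (SE 0.146). These falls are to be read against the -0.29 of all genes. DESeq2 called 6 of the 14 lower, with a median of -0.18 over all genes. Of 7 tested alpha cell markers 4 were called lower, among them Gcg (-2.11, SE 0.164). Over all genes 352 were called higher and 376 lower. DESeq2 called 362 higher and 108 lower, and without chow mouse 1, which gave 26 of the 57 cycling beta cells, 239 and 400 were called. Without chow mouse 2 the calls were 300 and 199. The cycling cells of a mouse were 5 to 26 in number and deeper than the others, and the part of depth in these calls was not tested.

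**Figure D5:**
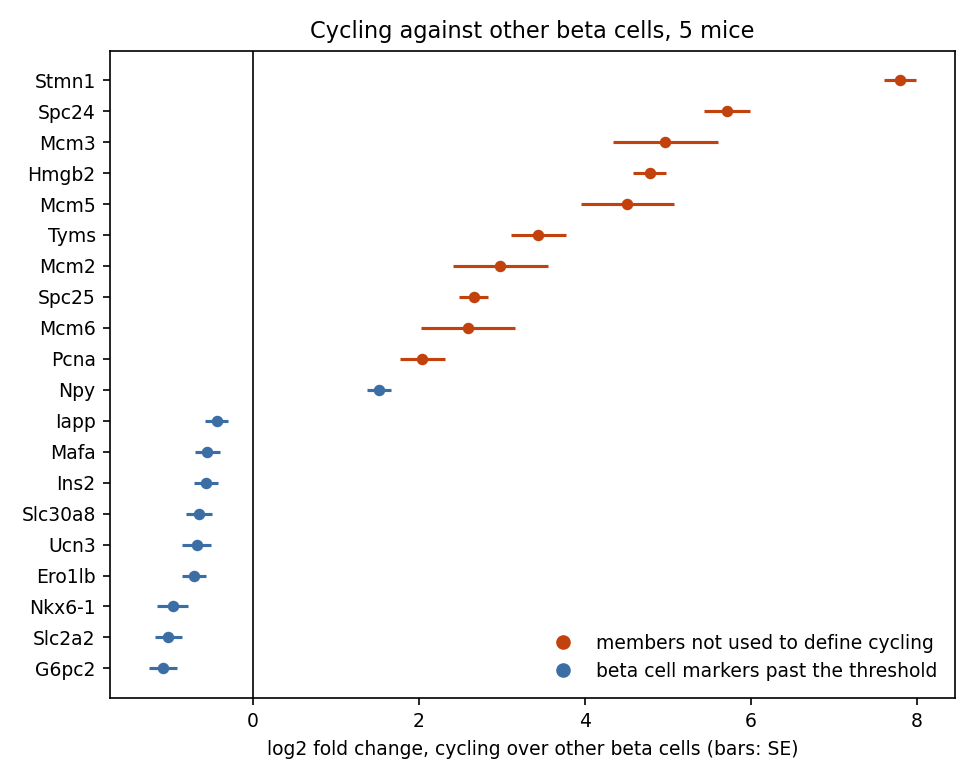
Log2 fold change of cycling over other beta cells of 5 mice, with SE as bars, for the members not used to define cycling (orange, Tk1 left out for its single UMI outside) and the beta cell markers past the threshold (blue). The members run from 2.04 (Pcna) to 7.80 (Stmn1), and every marker but Npy (1.52) is below 0.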

How the data were processed

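Each deposited matrix holds raw UMI counts of 1 mouse, made by the authors with Cell Ranger 4.0.0 on mm10 per the submitters' processing notes. Counting options and the annotation release are not given in the sources used here. Ensembl IDs were matched to symbols with a gene name table, and coordinates came from GENCODE vM21. The members and lists were chosen with earlier results of these data known.

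Cells with at least 1000 UMIs, 500 genes and at most 15% mitochondrial UMIs were kept and clustered (scanpy 1.11.5, Leiden, resolution 1) without 274 cell cycle genes. A cluster took a name from at least 3 markers among its 10 leading genes. Clusters left unnamed were tried on 20 leading genes, a step added after the clusters were seen. A cell was cycling with UMIs of at least 3 of 23 mitotic members. CPM is a mouse's UMIs of a gene in the given cells, scaled to 1000000 UMIs of those cells.

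Counts summed per mouse and type (at least 20 cells a mouse) were tested with edgeR 4.0.16 (R 4.3.3; TMM, filterByExpr, robust quasi-likelihood, two-sided, Benjamini-Hochberg adjusted p under 0.05). DESeq2 1.42.0 was an alternative. Comparisons within mice had the mouse as a block, since both sums came from the same animal. Shares were compared with exact permutation tests. The tests were checked on simulated counts. In each diet comparison the text names members past the threshold or the 5 of smallest p, with Spc25, Mki67 and Top2a in all cases where tested. Of other lists it names up to 6 called genes by smallest p. Nuf2, a partner of Spc25, was named outside this rule after its values were seen, as were Tubb4b and the neighbours of Spc25.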

Additional observations from a re-analysis of the deposited data

How the results depend on the processing

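Leaving out 1 mouse at a time moved the difference in the share of cycling cells (HC minus chow, percentage points) between -0.42 and 0.0619 over all kept cells. In beta cells it ran from -0.60 to 0.0499, for alpha cells from -0.196 to 0.265, and for delta cells from 0.0104 to 0.938. With HC mouse 2 grouped by its title the difference over all kept cells was 0.0709. With the cell cycle genes kept in the clustering it was -0.00506 in alpha and -0.0680 in delta cells, since that clustering moved most cycling cells to 1 cluster.

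Of members called in HC against chow mice (0 in all 6 sums), alternatives gave 1 in alpha cells without the filter on low counts and 1 in cells outside the cycle with under 2% insulin UMIs (Spc25 in both), 1 in beta cells with age as a term (Cenpa), and in delta cells 3 without the filter (Cdk1, Top2a, Ube2c), 1 by title and 0 to 1 without single mice (Hmgb2). In alpha against beta cells (5 called) DESeq2 gave 3, leaving out mice 3 to 6, and no filter 7, which added Spc25 (-0.23), Cdc20 (2.48), Cenpf (1.57) and Kif11 (1.91) and dropped Mcm2 and Hmgb2. In alpha against delta cells (2 called) DESeq2 gave 1, no filter 4 and leaving out mice 1 to 3. Calls over all genes moved with the setting as well. In alpha against beta cells DESeq2 called 2776 of 11531 genes higher and 2809 lower, and no filter 3817 and 4296 of 19042. In alpha against delta cells DESeq2 called 1097 and 1370 of 10189, and no filter 2775 and 2388 of 18329. The member counts in this paragraph, given without all such shares, are not read as support. The causes were not tested.

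Of 578 values of 54 single genes, 532 kept direction and side of the threshold and 26 changed sign, none of them past the threshold. Grouped by title, these were 0.03 (Mki67) and 0.51 (Top2a) over all kept cells, -0.10 (Mcm5) and 0.56 (Cenpa) in alpha cells, 0.06 and 0.96 (Spc25) in beta and delta cells and 0.20 (Cdk1) in endothelial cells. With age as a term they were -0.16 (Nusap1), -0.38 (Mki67) and -0.62 (Top2a) in alpha cells and -0.16 (Pcna) in macrophages. With stricter cell filters Top2a was 0.06 over all kept cells. Without single mice the lowest and highest were -0.36 and 0.29 for Mki67 and -0.68 and 0.37 for Top2a over all kept cells, and -1.04 and 0.22 for Mki67 and -1.05 and 0.15 for Top2a in beta cells. In alpha cells they were -1.17 and 0.16 for Mcm3, -2.07 and 0.19 for Cenpa, -0.27 and 0.89 for Mki67 and -0.40 and 1.64 for Top2a. They were -2.09 and 0.66 for Spc25 in delta cells and -0.23 and 0.46 for Pcna in macrophages.

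The fits within mice had the mouse as a block. With no replicate block, 3 members were called in alpha against beta cells, 1 in alpha against delta cells and 11 in cycling against other beta cells. Over all genes 3162 of 11531 were then called higher and 3275 lower, 1778 and 1807 of 10189, and 416 and 555 of 10197. This alternative was planned for the cycling comparison and was added after the data were seen for the comparisons of cell types. No paired analysis was possible because, between the diets, replicate numbers only name the mice in the order of their records.

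The other alternatives added after the data were seen were the sums of cells outside the cycle, those with under 2% insulin UMIs, the FUN against SKY term and the naming of clusters from 20 leading genes. The number of mice and of cycling cells limits precision: in simulated cycling beta cells 45.3% of 4-fold changes were found.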
